A study of Mus musculus with 6 samples.

Results

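Mitochondrial ribosomal protein genes were taken as all genes of the count table whose mouse symbol begins with Mrpl or Mrps followed by a digit. The rule found 78 of the 21965 genes, 49 named for the large subunit (Mrpl) and 29 for the small subunit (Mrps). A further 5 pseudogenes that meet the rule in the annotation were not in the table. The rule uses names and no measured value. The 6 libraries are polyA RNA of lung interstitial macrophages, which live in the tissue outside the air spaces and were obtained with fluorochrome-labelled antibodies from C57Bl/6 mice aged 6 to 8 weeks and kept under SPF conditions. The 3 WGP libraries are from mice given 1 mg of WGP, a β-glucan (a glucose polymer of fungal cell walls), into the peritoneum. The 3 PBS libraries are from mice given PBS in the same way. The titles of all 6 samples, in both groups, also carry the word Control. The labels give 6 days of treatment and harvest of the lungs on day 7. Whether a library holds 1 mouse or several is not in the labels. P-values therefore measure the spread among these samples, and that spread may be technical. The comparison asks what training with β-glucan changed in these cells.

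Mitochondria carry their own small genome, which encodes core subunits of the respiratory chain, the ribosomal RNAs and the tRNAs. A ribosome inside the mitochondrion, the mitoribosome, translates those messages. All of its proteins are encoded in the nucleus, made in the cytosol and imported, and they bear little resemblance to the proteins of the cytosolic ribosome. The small subunit reads the messenger RNA and the large subunit forms the peptide bond and passes the new chain through an exit tunnel to the inner membrane. Some members descend from bacterial ribosomal proteins, and others are found only in mitochondria. Many of their promoters are described as targets of the factors NRF1, GABP (of the ETS family) and YY1. Transcripts of the mitochondrial genome were not analysed here.

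After WGP, transcripts of a few large subunit proteins were moderately higher, those of the small subunit showed hardly any calls, and Mrps6, a small subunit gene, was lower by the largest amount of all members. Of the 48 large subunit genes tested, 9 rose, 1 fell and 38 did not pass the test. Of the 29 small subunit genes, 0 rose, Mrps6 fell and 28 did not pass. The count of 0 was from edgeR, was also 0 by DESeq2 and by limma-voom, and became 2 at an unadjusted p under 0.05 (Mrps10 and Mrps9). In all 11 of 77 members (14.3%) passed, where 31.0% of the 12305 genes tested did (edgeR's quasi-likelihood test, Benjamini-Hochberg adjusted p under 0.05). The share called in either direction was thus 20.8% in the large subunit and 3.45% in the small subunit, both under that background. With library sizes alone as the scaling 4 large subunit genes rose and 2 fell, and without PBS replicate 1 the number that rose was 4. Among all genes 15.2% rose and 15.7% fell. Among the 6421 genes within the members' range of mean level, 11.2% rose and 16.6% fell. The 9 of 48 large subunit genes that rose were a larger share than the 15.2% or the 11.2%. With library sizes alone the 4 of 48 that rose were a smaller share than the 1236 of 12305 genes that did. These differences in share were not tested.

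Promoter sequences are shown here as examples, for the members with the highest and the lowest fold change, Mrpl58 and Mrps6, for Mrpl30, which has the smallest adjusted p, for Mrpl22, whose window holds both an ETS and an NRF1 match, and for Mrpl12, the large subunit gene that fell. The calls of Mrpl22 and Mrpl12 were lost whichever library was left out. The sequences come from RefSeq windows of 250 bases before to 50 bases after each start (GRCm38.p6), which matched 69 of the 78 members. The windows printed for 4 of them are 150 bases each, on the plus strand and ending before the first annotated exon. For Mrpl58 the window is chr11:115403602-115403751. For Mrpl22 it is chr11:58171511-58171660, for Mrpl12 chr11:120484463-120484612 and for Mrps6 chr16:92058120-92058269. Capitals mark matches to the ETS family motif CCGGAAG and to the NRF1 motif core GCGCANGCG, on either strand.
Mrpl58: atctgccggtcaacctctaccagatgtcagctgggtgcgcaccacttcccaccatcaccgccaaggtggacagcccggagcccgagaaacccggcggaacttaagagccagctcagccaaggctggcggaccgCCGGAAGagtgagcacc
Mrpl22: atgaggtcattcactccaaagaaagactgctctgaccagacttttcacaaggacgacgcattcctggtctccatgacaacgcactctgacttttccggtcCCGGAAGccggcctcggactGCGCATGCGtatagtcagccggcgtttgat
Mrpl12: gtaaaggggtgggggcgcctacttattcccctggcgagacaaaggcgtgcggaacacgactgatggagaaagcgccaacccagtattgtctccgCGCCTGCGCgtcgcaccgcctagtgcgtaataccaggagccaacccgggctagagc
Mrps6: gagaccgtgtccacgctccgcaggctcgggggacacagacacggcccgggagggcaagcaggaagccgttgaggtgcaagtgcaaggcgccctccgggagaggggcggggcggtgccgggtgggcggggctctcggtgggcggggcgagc

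The Mrpl22 window holds an ETS match at position -53 and an NRF1 match at -33 relative to the RefSeq start. The Mrpl12 window, of a gene that fell, also holds an NRF1 match, at -80 on the reverse strand. The Mrps6 window holds no match to the 3 motifs searched. For Mrpl30, whose bases before position -65 lie in the first exon of its neighbour Mitd1, 2 sites of 30 bases at chr1:37890365-37890394 and chr1:37890385-37890414 each hold an NRF1 match.
Mrpl30 site at -102: cttccaggaaGCGCACGCGtgacgccgctg
Mrpl30 site at -82: gacgccgctgCGCCTGCGCtgtcttctatg

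For the shares that follow, a gene with several RefSeq windows counts when any of them holds a match. The windows shown above are only those nearest the annotated start, so the shares can be higher than in such windows. Over both strands of the full windows, 16 of 69 members (23.2%) held the NRF1 core, against 15.1% of the tested genes with a window and 7.03% of all genes with one. The ETS motif was in 26 members (37.7%), against 20.2% and 9.93%. The YY1 motif AANATGGCG was in 11 members (15.9%), against 6.02% and 2.76%. Any of the 3 was in 43 members (62.3%), against 35.2% of the tested genes and 17.2% of all genes. The share with any motif was 65.1% in the large subunit and 57.7% in the small subunit. Of the members with a window that passed the test 6 of 8 had a match. Mrpl4, Mrpl19 and Mrpl54 passed but had no window. Of the other members with a window 37 of 61 had a match (60.7%). These include Mrpl53, which was too low to be tested. A match of letters is a description of these windows and not of binding.

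The libraries held 18254678, 19451407 and 19325986 counts after WGP and 19549252, 18910786 and 20346517 counts after PBS. Members took between 0.146% and 0.16% of a library's counts, and a tested member had between 15 and 1677 counts in a library. Levels are TMM-normalised counts scaled to library size (CPM). The summed level of 16 interstitial macrophage markers was 13178 to 15285 CPM after WGP and 19801 to 22025 CPM after PBS, with 3 of 16 higher (Fcgr1, Cx3cr1 and Csf1r), 6 lower and none at 0. The sum of 15 alveolar macrophage markers was 1444 to 1832 CPM after WGP and 5445 to 8286 CPM after PBS, 14 of 15 lower. The sum of 12 classical monocyte markers was 11604 to 14969 CPM after WGP and 5036 to 5836 CPM after PBS, 11 of 12 higher. Epithelial markers summed to 20.1 to 83.6 CPM after WGP and 401 to 812 CPM after PBS, and endothelial markers to 101 to 123 CPM after WGP and 344 to 362 CPM after PBS. These sums separate the groups, and their part in the results that follow was not tested. In bulk libraries a change in the number of cells of a type cannot be told apart from a change of RNA per cell. Y-linked transcripts summed to 229.2, 206.6 and 223 CPM in WGP replicates 1, 2 and 3. In PBS replicates 1, 2 and 3 they summed to 114.2, 179.6 and 10.64 CPM. PBS replicates 1 and 3 thus stood apart, and some fold changes are also given without them.

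**Figure D1:**
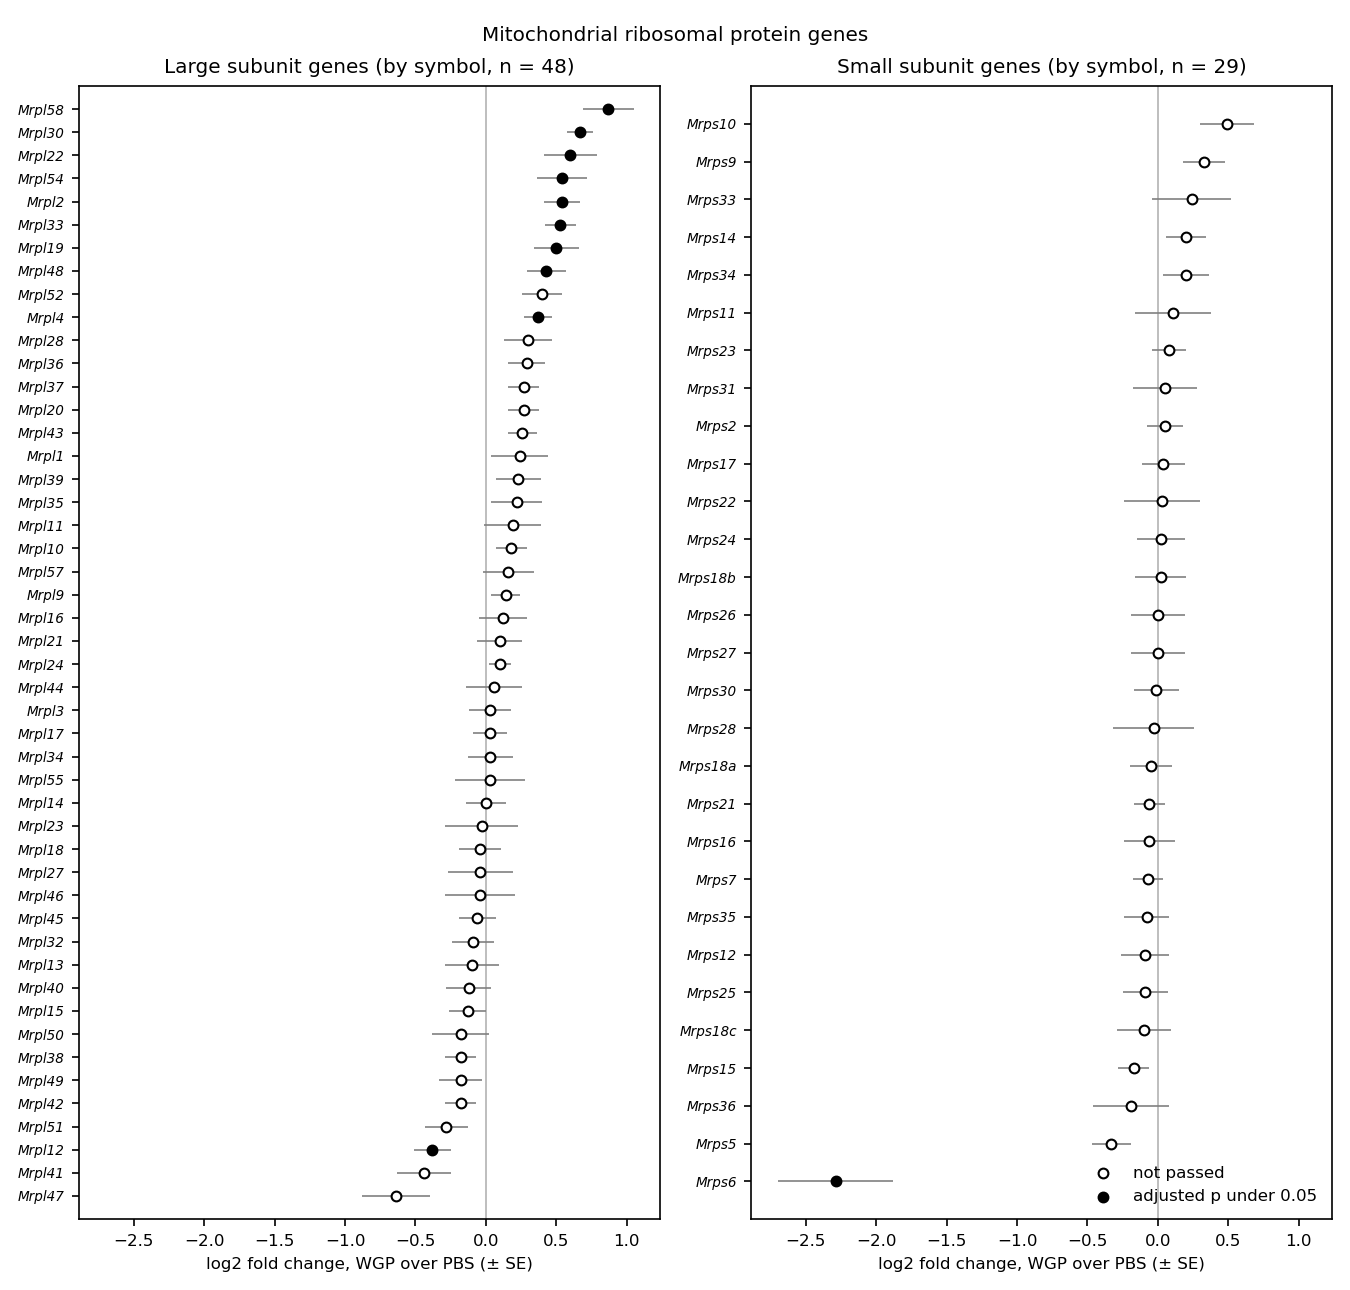
Log2 fold changes of WGP over PBS (x axis, with SE as bars) for 48 large subunit genes (left) and 29 small subunit genes (right), ordered by size. Filled points passed at an adjusted p under 0.05: 9 of the large subunit lie above 0 and Mrpl12 below it, and in the small subunit Mrps6 alone passed, at -2.29.

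Most members moved little. The median log2 fold change was 0.10 over the large subunit (middle 50% of genes from -0.06 to 0.28) and 0.00 over the small subunit (-0.08 to 0.05), beside -0.02 over all genes tested (-0.45 to 0.23). With library sizes alone as the scaling all of these moved down together, to -0.001 in the large subunit, -0.102 in the small subunit and -0.12 over all genes. In the large subunit 31 fold changes were positive and 17 negative, and in the small subunit 15 were positive and 14 negative. A log2 fold change of at least 1 in size was reached by 1 of 77 members, Mrps6, against 16.7% of all genes tested. The SE of a member's log2 fold change had a median of 0.16 and ran from 0.08 to 0.41, so that small changes were within the error for many members. The 3 WGP libraries lay wholly above the 3 PBS libraries for 15 large subunit and 3 small subunit genes and wholly below them for 6 and 2 genes. That made 26 of 77 members, where 48.1% of all genes tested did not overlap (23.2% above and 24.9% below).

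Mrpl58 (ENSMUSG00000018858, chr11:115403752-115412674, plus strand) had the highest fold change of all members. It encodes ICT1, a peptidyl-tRNA hydrolase built into the large subunit that can release chains from stalled mitoribosomes. Its level was 30, 24.0 and 22.3 CPM in WGP replicates 1, 2 and 3, against 15.5, 10.7 and 15.4 CPM in PBS replicates 1, 2 and 3. The groups did not overlap, and the lowest library was PBS replicate 2. The means were 25.4 ± 4.05 CPM after WGP and 13.9 ± 2.77 CPM after PBS (SD, n = 3 each), a log2 fold change of 0.87 ± 0.18 (SE; adjusted p = 0.0044). An ETS match stands at -17 in the promoter printed above.

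Mrpl30 (ENSMUSG00000026087, chr1:37890477-37898535, plus strand) had the smallest adjusted p of the members. It encodes a large subunit protein with a bacterial homologue. Its level was 58.3, 58.5 and 53.9 CPM in the WGP libraries, against 34.2, 34.9 and 38.5 CPM in the PBS libraries, with a gap between the groups far wider than the spread within either. The log2 fold change was 0.67 ± 0.09 (adjusted p = 4.8e-04). Its start lies 66 bp from that of Mitd1 on the other strand, a gene for a midbody protein, which had 14.3 ± 1.25 CPM after WGP and 9.95 ± 1.9 CPM after PBS (log2 fold change 0.53 ± 0.19, adjusted p = 0.055, not passed).

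Mrpl2 and Mrpl4 encode homologues of bacterial proteins that lie close to the peptidyl transferase centre and in the wall of the exit tunnel. Mrpl2 had 23.6, 26.1 and 22.5 CPM after WGP, against 16.4, 15.2 and 18.0 CPM after PBS. Its groups did not overlap, and its log2 fold change was 0.54 ± 0.13 (adjusted p = 0.011). Mrpl4 had 59.7, 58.7 and 65.8 CPM after WGP, against 43.8, 45.7 and 52.6 CPM after PBS (log2 fold change 0.37 ± 0.10, adjusted p = 0.015), the smallest fold change among the genes that rose. PBS replicate 3 was the highest PBS library for both. Mrpl22, the homologue of a protein that also lines the exit tunnel, had 10.6, 11.4 and 9.47 CPM after WGP, against 6.51, 6.80 and 7.51 CPM after PBS. All WGP libraries lay above the PBS libraries, with a log2 fold change of 0.60 ± 0.19 (adjusted p = 0.036).

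Mrpl33, a small protein of bacterial type, stood at 90.2, 71.7 and 91.8 CPM after WGP, against 56.0, 64.7 and 55.4 CPM after PBS, with WGP replicate 2 the closest to the PBS range. The log2 fold change was 0.53 ± 0.11 (adjusted p = 0.0047). Mrpl19, likewise with a bacterial homologue, had 21.2, 18.6 and 17.2 CPM after WGP, against 11.9, 12.7 and 15.7 CPM after PBS (log2 fold change 0.50 ± 0.16, adjusted p = 0.036). Of its exon bases 1962 overlap other annotated genes, of which only Gcfc2, on the other strand, is in the count table. Gcfc2 had 4.55 ± 0.911 CPM after WGP and 5.13 ± 1.15 CPM after PBS. As no strand setting is stated, reads in shared bases cannot be assigned to one gene or the other.

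Mrpl54 and Mrpl48 encode proteins found in mitochondrial but not bacterial ribosomes. Mrpl54 had 23.5, 19.5 and 21.8 CPM after WGP, against 12.5, 13 and 19.1 CPM after PBS. PBS replicate 3 lay just under the lowest WGP library, and the log2 fold change was 0.54 ± 0.18 (adjusted p = 0.043). Mrpl48 had 23.8, 21.5 and 22.2 CPM after WGP, against 15.5, 19.6 and 15.0 CPM after PBS (log2 fold change 0.43 ± 0.14, adjusted p = 0.044). PBS replicate 2 was the highest of its PBS libraries. Of the exon bases of Mrpl48, 708 overlap other annotated genes, of which only Rab6a, on the other strand, is in the count table. Rab6a had 106 ± 8.36 CPM after WGP and 120 ± 15.2 CPM after PBS.

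**Figure D2:**
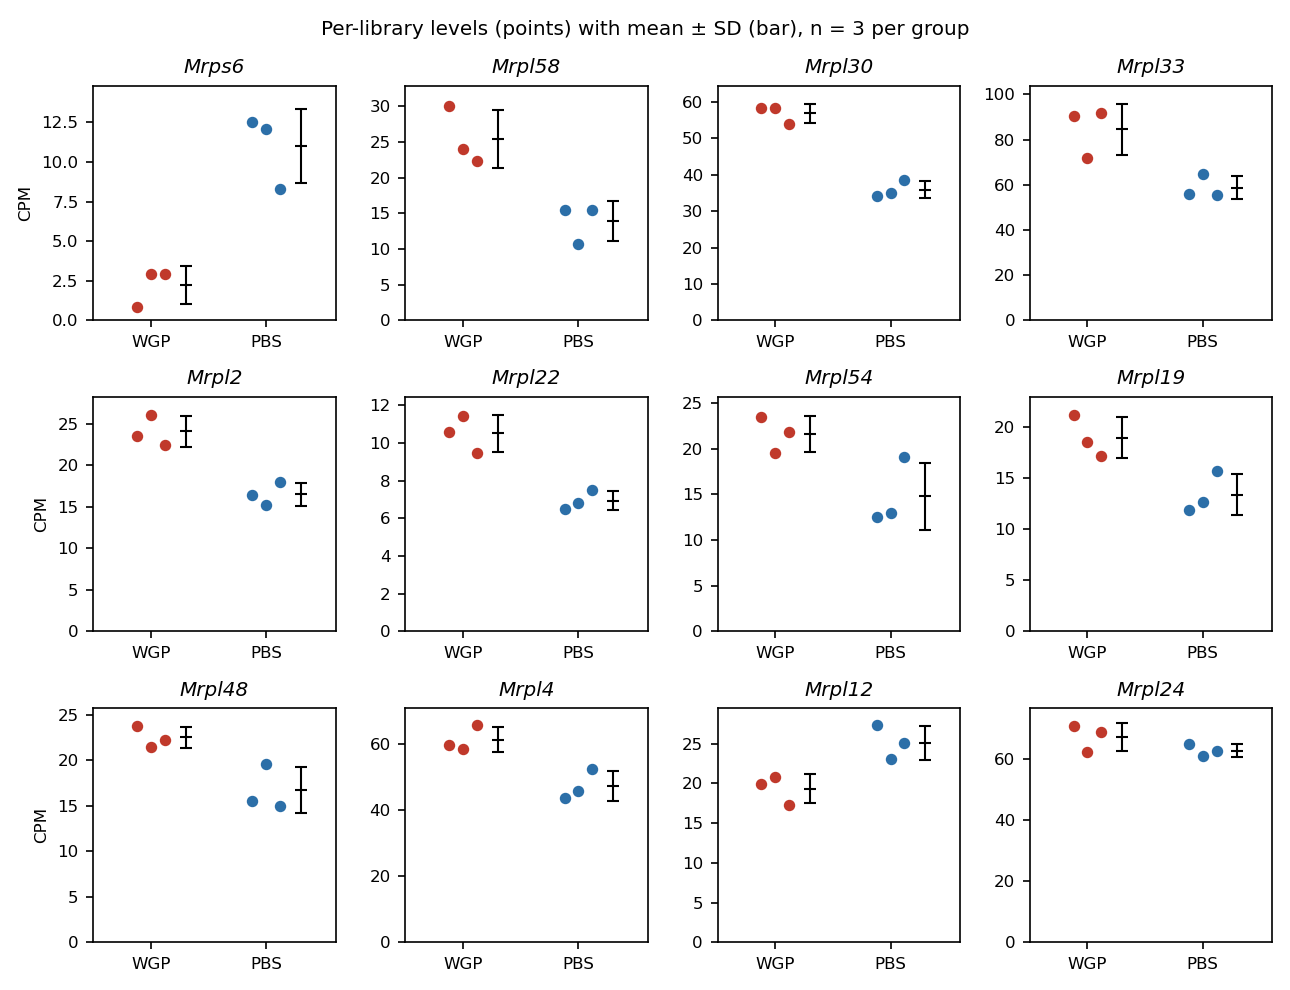
Levels in CPM (y axis, from 0) of the 11 members that passed and of Mrpl24 in each library, WGP left of PBS, with points for libraries and bars for the mean ± SD (n = 3). The groups do not overlap for the 11 that passed, whereas those of Mrpl24 do.

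The calls differed in how far they held when libraries were left out. Mrpl58, Mrpl30, Mrpl2, Mrpl33 and Mrps6 passed without any 1 of the 6 libraries. Leaving out both PBS replicates 1 and 3 leaves 1 PBS library, so only log2 fold changes are given for that fit. They were 1.25 for Mrpl58, 0.71 for Mrpl30 and 0.66 for Mrpl2. The PBS library left, replicate 2, was the lowest library of Mrpl58. The fold change of Mrpl33 ran from 0.39 to 0.64 over all alternative settings. Mrpl4 did not pass without replicate 1 (adjusted p = 0.078) or replicate 2 (0.054) of PBS, or without replicate 3 (0.065) of WGP. Mrpl54 lost its call without replicate 1 (0.17) or replicate 2 (0.14) of PBS, and without replicate 1 (0.11) or replicate 3 (0.11) of WGP. Mrpl19 lost its call without replicate 1 (0.15) or replicate 2 (0.11) of PBS, and without replicate 1 (0.11) or replicate 2 (0.062) of WGP. Mrpl48 passed without PBS replicate 2 (0.023) and lost its call without any other library (0.06 to 0.15). Mrpl22 lost its call whichever library was left out (0.051 to 0.12), as did Mrpl12 (0.053 to 0.18). Mrpl58, Mrpl30, Mrpl2 and Mrpl33 were the 4 large subunit genes that rose without PBS replicate 1. The fold changes of all 11 kept their sign throughout.

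Mrpl12 was the one large subunit gene that fell. Its product forms the flexible stalk that binds translation factors, and a role in binding the mitochondrial RNA polymerase has been described for it. It had 19.9, 20.8 and 17.3 CPM after WGP, against 27.3, 23.0 and 25.1 CPM after PBS, with a narrow gap between WGP replicate 2 and PBS replicate 2. The log2 fold change was -0.38 ± 0.13 (adjusted p = 0.049), close to the threshold. Polrmt, the gene of that polymerase, had 18.6 ± 0.82 CPM after WGP and 23.3 ± 3.27 CPM after PBS and did not pass (log2 fold change -0.32 ± 0.14, adjusted p = 0.10).

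Other large subunit genes stood near the threshold without passing it. Mrpl47, the homologue of a bacterial protein at the mouth of the exit tunnel, had 4.49, 4.44 and 3.99 CPM after WGP, against 6.90, 7.06 and 6.22 CPM after PBS. The groups did not overlap, and the log2 fold change of -0.64 ± 0.24 was the lowest of the large subunit (adjusted p = 0.067). With library sizes alone as the scaling it passed (-0.74, adjusted p = 0.042). Of the 4419 exon bases of Mrpl47, 1068 overlap other genes, with Actl6a and Ndufb5 on the other strand. As no strand setting is stated, reads there cannot be assigned to one gene. Mrpl41 had a log2 fold change of -0.44 ± 0.19 (adjusted p = 0.10). On the positive side Mrpl52 had 34.9, 38.4 and 28.2 CPM after WGP, against 22, 26.6 and 28.2 CPM after PBS, where the lowest WGP and the highest PBS library met (log2 fold change 0.40 ± 0.14, adjusted p = 0.056). It passed without WGP replicate 3 (0.03). Mrpl37, Mrpl43 and Mrpl20 had log2 fold changes of 0.27, 0.26 and 0.27, with adjusted p between 0.075 and 0.087, and did not overlap between the groups.

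Mrps6 (ENSMUSG00000039680, chr16:92058270-92112227, plus strand) encodes the homologue of a bacterial small subunit protein and was the small subunit gene that fell. It had 0.842, 2.90 and 2.95 CPM in WGP replicates 1, 2 and 3, against 12.5, 12.1 and 8.27 CPM in PBS replicates 1, 2 and 3, from 15, 55 and 54 counts after WGP and 257, 234 and 174 counts after PBS. All WGP libraries lay far below the lowest PBS library, and WGP replicate 1 was the lowest of all. The means of 2.23 ± 1.21 CPM after WGP and 11.0 ± 2.34 CPM after PBS gave a log2 fold change of -2.29 ± 0.41 (adjusted p = 0.0027), a level 4.89-fold lower after WGP. The log2 fold change ran from -2.54 to -1.90 over the 15 alternative settings. It was -2.44 without PBS replicates 1 and 3, a fit with 1 PBS library, and the call held in all other settings. In replicates 1, 2 and 3 of each group the alveolar macrophage marker sum was 1444, 1832 and 1634 CPM after WGP and 6922, 8286 and 5445 CPM after PBS. The epithelial marker sum was 20.1, 83.6 and 79.8 CPM after WGP and 535, 812 and 401 CPM after PBS. The part of either cell type in the result was not tested.

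Mrps6 shares its start with another gene on the same strand. Slc5a3, which encodes a sodium-coupled transporter of myo-inositol, starts 52 bp downstream, and its first exon of 159 bases lies wholly within the first exon of Mrps6. Its second exon of 10754 bases lies inside an intron of Mrps6. Slc5a3 had 3.93, 2.69 and 2.57 CPM after WGP, against 19, 28.5 and 15.5 CPM after PBS, again without overlap. The log2 fold change was -2.77 ± 0.27 (adjusted p = 7.6e-05). A predicted gene on the same strand, Gm49711, covers 305 of the 1533 exon bases of Mrps6, the 159 shared with Slc5a3 among them. Gm49711 had 0 counts in all libraries. Reads in these 305 bases cannot be given to one of the genes. The promoter window printed for Mrps6 lies upstream of both starts.

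**Figure D3:**
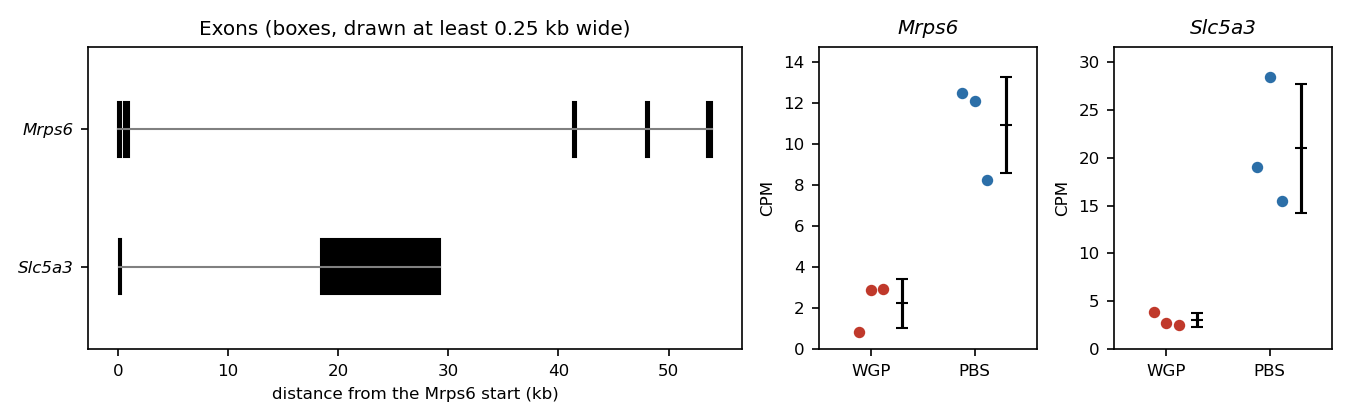
Exons of Mrps6 and Slc5a3 by distance from the Mrps6 start in kb (left, boxes, lines for introns), and the level of each gene in CPM per library with the mean ± SD (right, WGP left of PBS, n = 3). Both genes begin within 52 bp of each other, and in both all WGP libraries lie below all PBS libraries.

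The other 28 small subunit genes did not pass the test. Mrps10, whose bacterial homologue lies in the head of the subunit, had 12.0, 10.1 and 12.1 CPM after WGP, against 8.16, 7.11 and 9.17 CPM after PBS. It had the highest fold change of the subunit without passing (log2 fold change 0.49 ± 0.19, adjusted p = 0.075), and its groups did not overlap. Mrps9 had a log2 fold change of 0.33 ± 0.15 (adjusted p = 0.11). Mrps5 had 16.2, 13.6 and 13.9 CPM after WGP, against 18.2, 18.8 and 18.1 CPM after PBS (log2 fold change -0.33 ± 0.14, adjusted p = 0.095), and passed with library sizes alone (-0.43, adjusted p = 0.042). A p that misses the threshold does not show that a gene stayed the same, and an interval of 2 SE either side ran from -0.29 to 0.15 for Mrps7 and from -0.44 to 0.65 for Mrps11.

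Names and places in the ribosome do not match for a few members. Mrps30 and Mrps18a are named for the small subunit, but structures place their proteins in the large subunit as mL65 and mL66. Mrps30 had 17.9, 19 and 15.8 CPM after WGP, against 14.2, 19.5 and 19.4 CPM after PBS (log2 fold change -0.01 ± 0.16, adjusted p = 0.97). Mrps18a had 18.7, 26.4 and 19.8 CPM after WGP, against 22.7, 23.5 and 21.1 CPM after PBS (-0.05 ± 0.15, adjusted p = 0.82). Its paralogues did not pass either, with 0.02 ± 0.18 for Mrps18b, known as mS40 (adjusted p = 0.93), and -0.10 ± 0.19 for Mrps18c, known as bS18m (adjusted p = 0.74). Mrps36, whose product is now described as part of the 2-oxoglutarate dehydrogenase complex rather than of the ribosome, had 4.32, 7.29 and 5.64 CPM after WGP, against 7.77, 6.02 and 5.84 CPM after PBS (-0.19 ± 0.27, adjusted p = 0.64).

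Placing the genes by structure moved the medians little, to 0.08 for 50 large subunit genes tested (9 higher and 1 lower) and 0.01 for 26 small subunit genes (0 higher and 1 lower). Within the large subunit, genes with a bacterial homologue had 6 of 29 higher and 1 lower (median 0.12), and mitochondria-specific genes had 3 of 21 higher and 0 lower (median -0.01; 1 lower at an unadjusted p under 0.05). Within the small subunit they were 0 of 15 higher and 1 lower (median -0.06), and 0 of 11 in either direction (median 0.02, also 0 at an unadjusted p under 0.05). The difference between these classes was not tested.

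With TMM scaling the summed level of the large subunit separated the groups and that of the small subunit did not. That separation rests on the TMM factors, which were 0.9459 to 0.9763 after WGP and 1.02 to 1.054 after PBS. Without them the large subunit sum of WGP replicate 3 falls just below that of PBS replicate 1. The large subunit summed to 1147, 1115 and 1109 CPM after WGP (1124 ± 20.5, SD, n = 3), against 998.7, 976.8 and 1005 CPM after PBS (993.6 ± 14.9). The small subunit summed to 491.6, 485.3 and 460.6 CPM after WGP (479.2 ± 16.4), against 505.2, 457.7 and 490.9 CPM after PBS (484.6 ± 24.4), with overlapping groups. The ratio of the large to the small sum, which does not depend on the scaling of a library, was 2.33, 2.30 and 2.41 after WGP, against 1.98, 2.13 and 2.05 after PBS. It was 2.34, 2.31 and 2.42 after WGP and 2.03, 2.19 and 2.08 after PBS with Mrps6 left out. The large subunit sums hold the 9 genes that rose and Mrpl12, which fell, and were not computed without them. Mean levels after WGP and PBS were 84.5 and 58.7 CPM for Mrpl33, 61.4 and 47.4 for Mrpl4, and 56.9 and 35.9 for Mrpl30. For Mrpl12 they were 19.3 and 25.1 CPM. The sums and the ratio thus do not show a rise across the whole subunit.

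**Figure D4:**
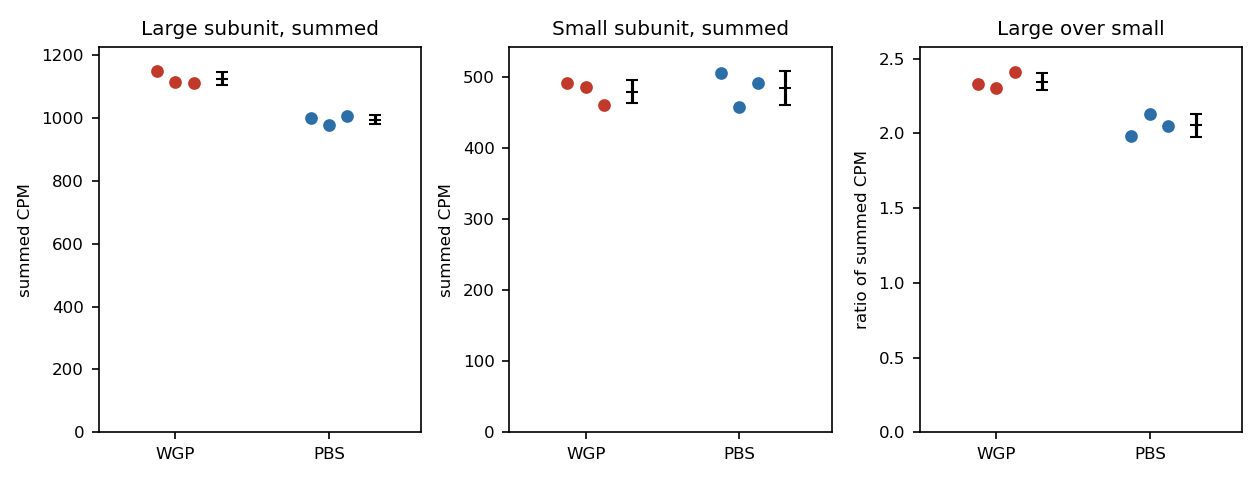
Summed CPM of the large subunit (left) and the small subunit (centre) and their ratio (right) in each library, WGP left of PBS, all axes from 0, with the mean ± SD (n = 3). With TMM scaling the large subunit sums of the WGP libraries lie above all PBS libraries, and the small subunit sums overlap. The ratios of the WGP libraries lie above all PBS libraries.

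Per kilobase of exon, members covered a wide range of levels. The median over all libraries was 7.28 CPM per kb in the large subunit and 5.37 CPM per kb in the small subunit. The highest was Mrps21, the homologue of a bacterial small subunit protein, at 43.7 CPM per kb, with 33.1, 31.8 and 30 CPM after WGP against 31.8, 35.5 and 31.4 CPM after PBS. Next came Mrpl24 at 28.8, Mrpl52 at 26.8, Mrpl43 at 24.9 CPM per kb and, in the small subunit, Mrps23 at 21 and Mrps15 at 20 CPM per kb. Mrpl24 had 70.5, 62.0 and 68.8 CPM after WGP, against 64.8, 60.7 and 62.3 CPM after PBS, and did not pass (log2 fold change 0.10 ± 0.08, adjusted p = 0.40). Mrps23 and Mrps15 did not pass either, with log2 fold changes of 0.08 ± 0.12 and -0.17 ± 0.11. The lowest tested level was 1.00 CPM per kb in the large subunit (Mrpl23), and Mrps10 at 1.21 and Mrps35 at 1.34 CPM per kb were the lowest of the small subunit. The length used is the union of all annotated exons, 8079 bases for Mrps10 and 8631 for Mrps35, so this ranking depends on the annotation. By mean CPM both lay above Mrps28, which had 5.82 CPM after WGP and 5.91 CPM after PBS. Mrpl53, at 0.323 CPM per kb, was too low to be tested, with 8, 9 and 4 counts after WGP and 1, 2 and 5 counts after PBS. Of its exon bases 695 overlap other annotated genes, of which only Gm42688 is in the count table. The share of members whose exons overlap another gene of the table was 29.5%, against 17% of its 21882 protein-coding genes, tested or not.

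Members often begin close to a gene on the opposite strand. A divergent protein-coding start lay within 500 bp upstream of 17 members (21.8%), against 6.16% of the 21882 protein-coding genes of the table, tested or not. Opposite-strand genes that overlap at their starts, as Mrpl46 and Mrps11 do, were not counted. Of the 17 neighbours 16 were tested, and 4 rose, 1 fell and 11 did not pass, beside the same background of 31.0%. The members with such a neighbour that rose were Mrpl30, Mrpl2 and Mrpl54, and none of their 3 neighbours passed. These were Mitd1 (log2 fold change 0.53 ± 0.19, adjusted p = 0.055), Klc4, 207 bp from Mrpl2 (-0.09 ± 0.12, adjusted p = 0.62), and Apba3, 26 bp from Mrpl54 (-0.19 ± 0.11, adjusted p = 0.23). The 5 neighbours that passed lay beside members that did not, and the difference within a pair was not tested. Mrpl32 did not pass (-0.09 ± 0.15), while Psma2, a proteasome subunit gene 75 bp away, rose by 0.42 ± 0.09 (adjusted p = 0.0049). Mrpl49 did not pass (-0.18 ± 0.15), while Fau, a cytosolic ribosomal protein gene 59 bp away, rose by 0.23 ± 0.08 (adjusted p = 0.046). Mrpl51 did not pass (-0.28 ± 0.15), while Ncapd2, a condensin gene 100 bp away, had a log2 fold change of -1.22 ± 0.26 (adjusted p = 0.0095). Mrps12 did not pass (-0.09 ± 0.17), while Sars2, the mitochondrial seryl-tRNA synthetase gene 172 bp away, rose by 0.56 ± 0.17 (adjusted p = 0.03). Mrps34 did not pass (0.20 ± 0.16), while Eme2, which encodes a partner of a DNA repair nuclease and lies 29 bp away, rose by 0.56 ± 0.19 (adjusted p = 0.048).

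Genes that build and serve the mitoribosome were read against the same background of 31.0% of all genes tested (15.2% higher and 15.7% lower). The share called was 11.1% of assembly factors, 6.25% of the list of translation factors and 10% of the list of aminoacyl-tRNA synthetases. It was 6.25% of genes of mitochondrial DNA maintenance and transcription. All of these shares were below that background, and the 33.3% of regulators was near it. These lists were chosen with earlier results of these data known. The 5 mitoribosome proteins with other symbols (Dap3, Chchd1, Aurkaip1, Ptcd3 and Gadd45gip1) had 0 calls by edgeR (1 at an unadjusted p under 0.05, median -0.05), and Aurkaip1 had the smallest adjusted p at 0.11. Of 27 assembly factors 2 rose and 1 fell (median -0.05). Rbfa, which helps mature the small subunit, had 53.4 ± 3.24 CPM after WGP and 30.6 ± 8.15 CPM after PBS (log2 fold change 0.80 ± 0.17, adjusted p = 0.0062). Nsun4, a methyltransferase needed for joining the subunits, had 17.0 ± 0.925 CPM after WGP and 9.97 ± 1.82 CPM after PBS (0.77 ± 0.17, adjusted p = 0.0069). Rpusd3, a mitochondrial pseudouridine synthase, had 0.767 ± 0.187 CPM after WGP and 3.96 ± 0.213 CPM after PBS (-2.36 ± 0.43, adjusted p = 0.0021).

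In the list of translation factors 15 of 16 genes tested did not pass (median 0.08). Oxa1l, which inserts new chains into the inner membrane and is not itself a translation factor, rose (105 ± 2.53 CPM after WGP, 83.2 ± 2.39 CPM after PBS, log2 fold change 0.33 ± 0.07, adjusted p = 0.005). Of 20 genes in the list of mitochondrial aminoacyl-tRNA synthetases 1 rose (Sars2, 0 with library sizes alone) and 1 fell, Ears2 (log2 fold change -1.16 ± 0.30, adjusted p = 0.013). That list also holds Qrsl1, Gatb and Gatc, which encode subunits of an amidotransferase and did not pass. Of 16 genes of mitochondrial DNA maintenance and transcription 1 fell, the nuclease gene Mgme1 (-0.76 ± 0.19, adjusted p = 0.012). Among 9 regulators tested, 2 rose and 1 fell (1 and 2 with library sizes alone). Gabpb2, a partner subunit of GABP, had 173 ± 7.52 CPM after WGP and 116 ± 2.82 CPM after PBS (0.58 ± 0.07, adjusted p = 1.8e-04), and Yy1 had 123 ± 2.61 CPM after WGP and 100 ± 2.51 CPM after PBS (0.29 ± 0.07, adjusted p = 0.0082). Myc, a growth regulator, had 16.8 ± 6.96 CPM after WGP and 60.0 ± 4.42 CPM after PBS (-1.83 ± 0.29, adjusted p = 0.0043). Nrf1 (0.20 ± 0.10, adjusted p = 0.16) and Gabpa (-0.01 ± 0.10, adjusted p = 0.93) did not pass.

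In the cytosolic ribosome the share of genes called in either direction was close to the 31.0% of all genes tested. In the respiratory chain it was below that share. Almost all of these calls were upward, and in each list the share that rose was above the 15.2% that rose among all genes tested. Of 49 cytosolic large subunit genes 18 rose (36.7%) and 0 fell (median 0.15; 0 fell at an unadjusted p under 0.05), for example Rplp0 (0.36 ± 0.07, adjusted p = 0.0026). Of 33 cytosolic small subunit genes 11 rose (33.3%) and 0 fell (median 0.18; 0 fell at an unadjusted p under 0.05), for example Rpsa (0.42 ± 0.07, adjusted p = 0.0017). Among 76 nuclear-encoded subunits of the respiratory chain and ATP synthase 19 rose and 1 fell (26.3% called, median 0.17), among them the complex I gene Ndufs8 (0.59 ± 0.08, adjusted p = 5.6e-04). With library sizes alone these counts were 4 higher and 1 lower, 3 higher and 1 lower, and 7 higher and 4 lower, with medians of 0.05, 0.08 and 0.07. Under that scaling 1236 of all 12305 genes rose, a larger share than in any of these lists, and 2460 fell. The difference between these lists and the mitoribosome was not tested.

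**Figure D5:**
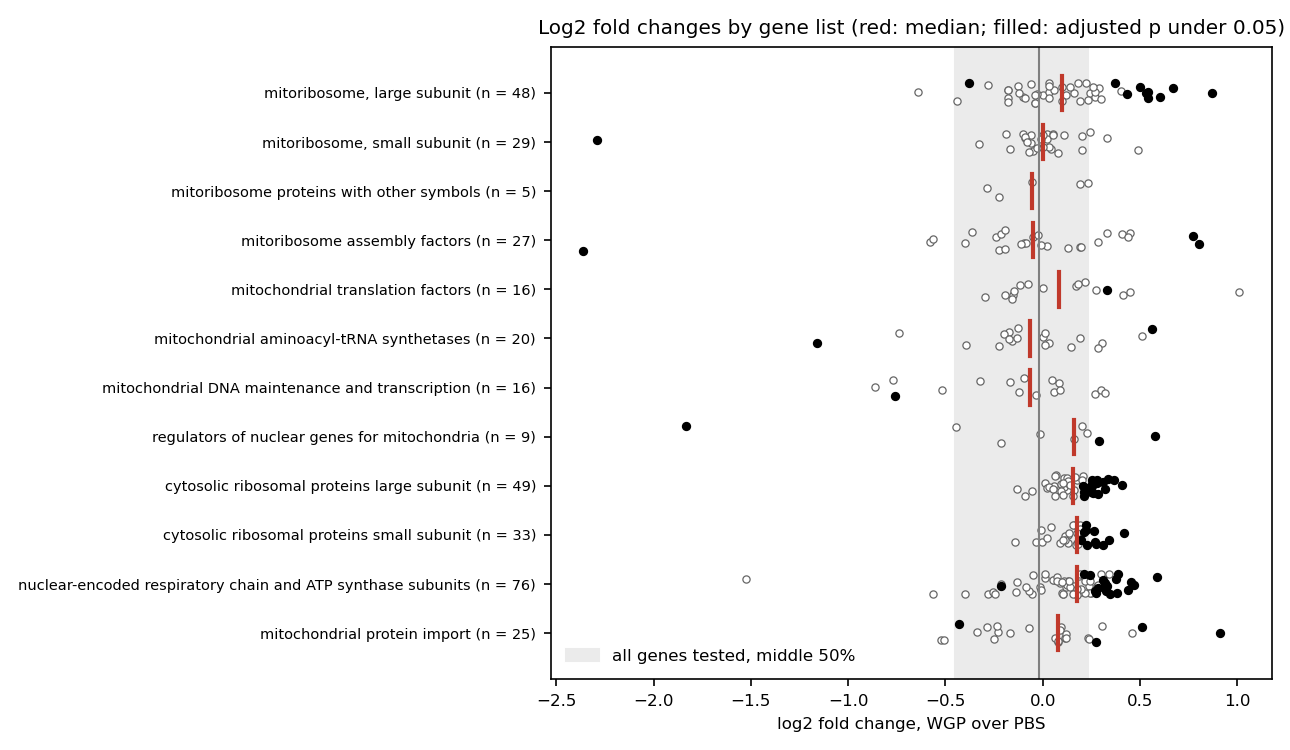
Log2 fold changes of WGP over PBS (x axis) of the genes tested in the mitoribosome subunits and in related lists (rows, n beside each name), with the list median as a red bar and filled points for an adjusted p under 0.05. Grey marks the middle 50% of all genes tested, from -0.45 to 0.23, and the medians of the subunits are 0.10 and 0.00, of the cytosolic subunits 0.15 and 0.18.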

How the data were processed

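RNA of 3 WGP and 3 PBS libraries of lung interstitial macrophages was sequenced after polyA selection. The deposited values are raw counts per gene, made by the authors; per the submitters' processing notes the builds were mm10 and GRCm38 and the tools FastQC 0.10.1 and HTSeq 0.10.0. Aligner, annotation and strand setting were not given in the sources used here. Identifiers were matched to GENCODE M21 (21939 of 21965), which gave symbols, coordinates and the union of exons. All libraries were fitted with edgeR 4.0.16 (R 4.3.3; low-count filter filterByExpr, TMM scaling to effective library sizes) by its robust two-sided quasi-likelihood test. P-values were adjusted by Benjamini-Hochberg over the 12305 genes kept, with a threshold of 0.05. SE is the log2 fold change divided by the square root of F, and intervals are 2 SE either side. The biological coefficient of variation was 0.181. The method was tested on simulated counts. Totals ran from 18254678 to 20346517 counts. Replicates differed by more than sampling noise (chi-square per degree of freedom 13.5 to 24.8). No exact test of 3 against 3 can give a two-sided p below 0.1.

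Alternatives were other scalings and low-count filters, DESeq2 1.42.0, limma-voom (limma 3.58.1), each library left out, a replicate block and placing genes by structure. A Y-linked covariate and leaving out PBS replicates 1 and 3, which leaves 1 PBS library, were added after seeing the data. The members and lists were chosen with earlier results of these data known. Members given per library were the 5 highest and 5 lowest fold changes that passed in each subunit, the 3 highest and 2 lowest levels per kb, and 8 fixed names. Mrpl33, Mrpl19, Mrpl48, Mrpl4, Mrpl41, Mrpl37, Mrpl20, Mrps5, Mrps7, Mrps9, Mrps11 and the divergent neighbours were chosen after their values were seen.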

Additional observations from a re-analysis of the deposited data

How the results depend on the processing

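The large subunit had 9 genes higher and 1 lower, with a median log2 fold change of 0.101, and the small subunit 0 higher and 1 lower, with a median of 0.001. With library sizes alone, where the median of all genes moved to -0.12 (1236 higher and 2460 lower), the large subunit had 4 higher, 2 lower (Mrpl12 and Mrpl47) and a median of -0.001, and the small subunit 2 lower (Mrps6 and Mrps5) and a median of -0.102. A change of scaling moves all genes by a near-equal amount, so the place of these medians relative to all genes is no test of the result. The large subunit had 0 lower with no low-count filter, with DESeq2, with the Y-linked covariate and without both PBS replicates 1 and 3, where 2 were higher (Mrpl58 and Mrpl30) and 1820 genes changed in all. With 1 library left out the large subunit had 4 to 7 higher, 0 lower and a median of 0.055 to 0.106, and between 2491 and 3717 genes changed in all, lowest without PBS replicate 1. Same-numbered libraries did not deviate together (correlations of -0.0811 to -0.0458). With 3 libraries a group this cannot show whether they were paired, which is not in the labels. With the replicate block the large subunit had 6 higher and 0 lower, the small subunit 1 lower, and 3185 genes changed in all. The small subunit had 0 higher under every alternative run. The causes of these moves were not tested. With 3 libraries a group and a median SE of 0.16, small changes were often within the error.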

Other observations

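The lists of cell division and of protein import are not covered above. Of 20 proliferation genes 9 fell and 0 rose by edgeR (45% called, where 31.0% of all genes tested were; 0 rose at an unadjusted p under 0.05), with a median log2 fold change of -1.03. Mcm7, a subunit of the replicative helicase, had 16.4 ± 3.97 CPM after WGP and 30 ± 4.13 CPM after PBS (-0.88 ± 0.18, adjusted p = 0.0046). Of 25 genes of mitochondrial protein import 3 rose and 1 fell (16% called, below that background; median 0.08; 1 in each direction with library sizes alone). Timm10b, a small chaperone of the intermembrane space, had 18.5 ± 2.78 CPM after WGP and 9.82 ± 2.77 CPM after PBS (0.91 ± 0.21, adjusted p = 0.0084). Dnajc19 (0.51 ± 0.14, adjusted p = 0.017) and Tomm22 (0.27 ± 0.08, adjusted p = 0.02) rose too. Hspa9, the matrix chaperone that pulls proteins in, had 101 ± 3.19 CPM after WGP and 136 ± 15.9 CPM after PBS (-0.43 ± 0.09, adjusted p = 0.0046).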
